A study of Mus musculus with 21 samples.

Results

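Sorted neurons that carried a fusion of Mex3a with an RNA-editing domain were compared, across all genes, with the mCherry-negative cells of the same mice. The comparison took in 11 of the 21 libraries of the study: 6 libraries of neurons (MexHT neurons, replicates 1 to 6) and 5 of negative cells (replicates 1 to 5). They were chosen by their labels, as the MexHT libraries of mice with both drivers, and libraries with the same number came from the same mouse, so 5 mice gave both fractions and neuron replicate 6 had no partner. All 11 libraries came from the main olfactory epithelium of mice of the genotype gg8tTA; OMPtTA; tetO-Mex3a_HyperTRIBE_mCherry, so neurons and negative cells shared every transgene and were separated only by the sort. The labels call the neurons immature and mature olfactory sensory neurons and the negative cells sorted mCherry- cells, used as the internal control of the editing experiment. Age, sex and strain are not given in the labels. For one test only, 6 libraries of mice with the editing domain alone were added (gg8tTA; OMPtTA; tetO-HyperTRIBE_mCherry, 3 of neurons and 3 of negative cells, called HT). Values are also given from 4 libraries of gg8tTA; tetO-Mex3a_HyperTRIBE_mCherry mice (2 of sorted immature neurons and 2 of negative cells). Library date and driver cannot be told apart between these 4 libraries and the others, because the library names carry one date for each.

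Mex3a is an RNA-binding protein of a family with KH domains. In HyperTRIBE the RNA-binding protein is joined to the catalytic domain of an adenosine deaminase acting on RNA, which leaves point mutations in the RNAs that the protein binds. The fusion was placed under a tetracycline-responsive promoter, and the transactivator came from gg8-tTA, active in immature olfactory sensory neurons, and OMP-tTA, active in mature ones. Olfactory sensory neurons arise throughout life from basal progenitors, pass through an immature stage of axon growth, and then build odor-sensing cilia and settle on a single odorant receptor. Around them sit sustentacular cells, Bowman glands, microvillous cells and basal cells, with a lamina propria of vessels, glia, connective tissue, blood cells and bone below. The deposited values were TPM, transcript levels corrected for gene length and scaled to a fixed total per library. A rise or a fall is written only of genes with an adjusted p under 0.05 in limma on log2(TPM + 1), and log2 differences are neurons minus negative cells on that scale. In sorted bulk RNA, fewer cells of a type and less RNA per cell cannot be told apart.

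The depth recovered from the values was 7529648 to 12600530 counts in the MexHT neuron libraries and 8406346 to 10907863 in the negative libraries. At 1 TPM or more there were 15010 to 15671 genes per neuron library and 16166 to 16501 per negative library. The 100 highest genes took 13.53% to 15.54% of the TPM in neurons and 16.82% to 19.3% in negative cells. Several libraries stood apart. Neuron replicates 5 and 6 had less of the odor transduction genes than the other 4 and the most Mex3a, and negative replicate 1 had the most basal and sustentacular transcripts and the least granulocyte transcripts. Xist stood at 55.27 to 162.5 TPM in the 11 libraries, and 10 of them also held transcripts of 4 Y-linked genes, which were all at 0 in neuron replicate 6. The labels tie each number to one mouse and give no sex, and 10 libraries therefore did not match a single mouse of one sex. For some of the results that moved without the libraries named here, both values are given.

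The carried gene was examined first. In MexHT neurons the lowest, median and highest Mex3a values were 328.5, 348.3 and 1271 TPM, and the negative cells of mice 1 to 5 stood at 57.81, 105.6, 143.9, 93.69 and 206.8 TPM. All 6 neuron libraries were above all 5 negative libraries, with replicate 5 highest (1271) and replicate 6 next (678.8). The means were 551.1 ± 377.9 TPM (SD, n = 6) and 121.6 ± 56.7 (SD, n = 5), a log2 difference of 2.08 (SE 0.39, limma adjusted p = 0.000531). Within the 5 mice the difference was 1.19 to 2.61, higher in neurons in 5 of 5. In HT mice, whose construct has no Mex3a, neurons stood at 39.18 TPM and negative cells at 54.01 on average, a log2 difference of -0.46. The difference of 2.55 between the constructs (SE 0.67) had an adjusted p of 0.0204, which became 0.0606 without HT neuron replicate 1 and 0.0568 without HT negative replicate 2. In the 2 gg8 mice the log2 difference was 1.12 and 4.0. Reads of the transgene and of the mouse gene cannot be told apart in these values.

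Of the other members of the family, Mex3b rose, with a lowest, median and highest of 43.14, 53.59 and 188.4 TPM in neurons against 17.72, 28.63, 40.36, 21.82 and 48.66 in negative cells (log2 difference 1.21, adjusted p = 0.0134). The neuron and negative libraries of Mex3b overlapped. Mex3c (log2 difference 0.31, adjusted p = 0.0795) and Mex3d (0.61, adjusted p = 0.063) did not pass the test, and Mex3d passed with the mouse as a block (adjusted p = 0.0309).

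Adar, an adenosine deaminase acting on RNA, had the largest rise among the genes named by rule. Its lowest, median and highest values in neurons were 377.3, 407 and 1198 TPM, against 52.45, 63.33, 71.56, 62.52 and 90.49 TPM in the negative cells of mice 1 to 5. No negative library reached the lowest neuron library, and the highest neuron value was again in replicate 5. The log2 difference was 2.96 (SE 0.29, adjusted p = 2.44e-06). In HT mice it was larger, 4.27, with 1033, 1049 and 1155 TPM in the 3 neuron libraries and 50.99, 56.63 and 57.24 in the 3 negative ones, and the difference between the constructs (-1.31, adjusted p = 0.0519) missed the threshold. It passed in 6 of 25 alternative settings, among them the fits without MexHT neuron replicate 5 (adjusted p = 0.00306) or 6 (0.0421). The labels do not name the enzyme of the editing domain, and its part in these reads was not tested. Adarb1, another deaminase of this family, stood at 16.5 and 18.55 TPM (log2 difference -0.18, adjusted p = 0.42).

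Most of the measured genes differed between the fractions. Of 16522 genes tested, 5909 (35.8%) rose and 4558 (27.6%) fell in MexHT neurons, 63.4% in all, and 11060 had an unadjusted p under 0.05. The falls were much larger than the rises. At least 4-fold, 100 genes rose (0.605%) and 1645 fell (9.96%), and at least 16-fold, 0 rose and 226 fell (1.37%). The median log2 difference was 0.79 among the rises, -1.53 among the falls and 0.16 over all genes. The libraries of the groups did not overlap for 3874 genes higher in neurons (23.4%) and 3242 lower (19.6%). With median-of-ratios scaling in place of the TPM totals the median over all genes was 0.03, and 4875 genes rose and 5127 fell, so rises were 48.7% of all calls in place of 56.5%. The counts of each gene list below are to be read against these shares and its median against 0.16.

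Genes of the presynaptic terminal, which dock and release synaptic vesicles, rose nearly as a whole. Of 18 such genes, 17 rose and none fell (35.8% of all genes rose), the median log2 difference was 1.36, and 11 did not overlap between the groups. Stx1a, a syntaxin of the vesicle fusion machinery, had 315.7, 349.3 and 430.8 TPM (lowest, median, highest) in neurons and 68.15, 107.2, 104.3, 74.19 and 99.44 in the negative cells of mice 1 to 5. The lowest neuron library of Stx1a lay well above the highest negative library (log2 difference 1.99, SE 0.14, adjusted p = 1.45e-07). The synaptic vesicle proteins Syn1 (1.85) and Sv2a (1.78), the active zone proteins Rims1 (1.79), Unc13a (1.60) and Bsn (1.49), the small GTPase Rab3a (1.68) and the SNARE protein Snap25 (1.21) rose too. The gene that missed the threshold was Slc17a6, which loads glutamate into vesicles (0.71, adjusted p = 0.205). Summed over the list, neuron replicates 1 to 6 stood at 4106, 3800, 3780, 3732, 2615 and 3026 TPM and negative replicates 1 to 5 at 1504, 2348, 1083, 1374 and 841.1. The lowest sums in neurons were those of replicates 5 and 6, and both were above every negative library.

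**Figure D1:**
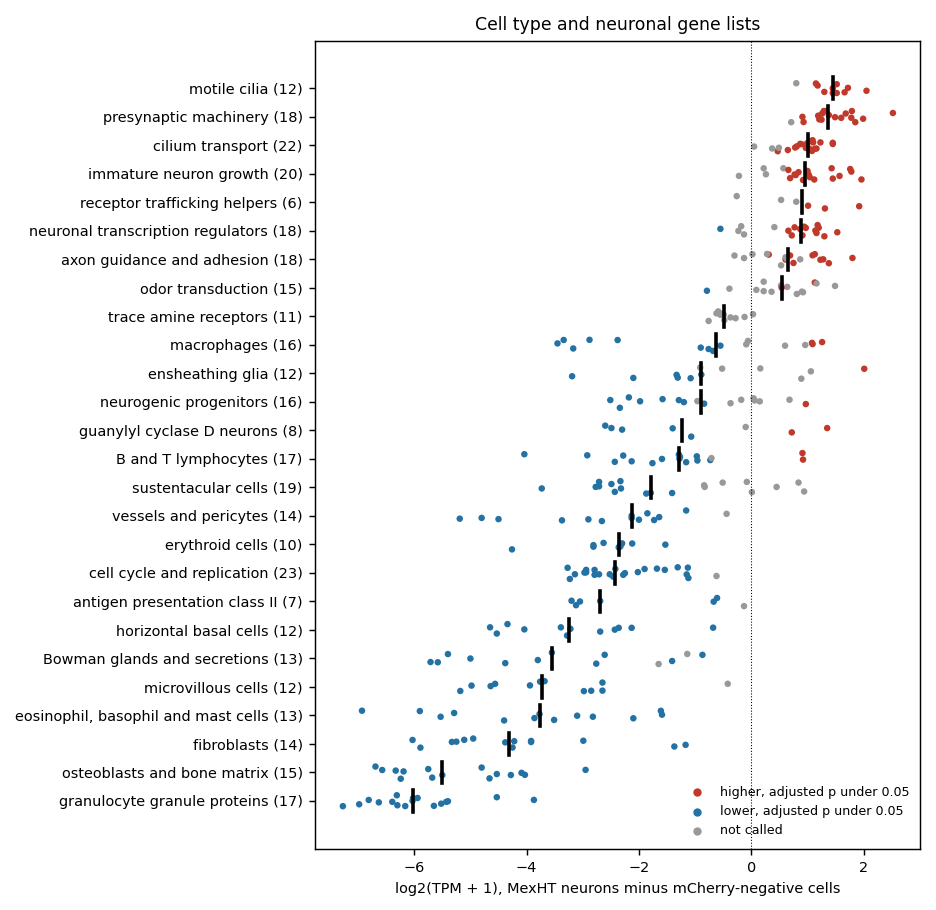
Log2(TPM + 1) difference, MexHT neurons minus mCherry-negative cells (x axis), for each tested gene (points) of the cell type and neuronal lists (rows, number tested in brackets), with the list median as a black bar. Motile cilia (1.45) and presynaptic genes (1.36) have the highest medians, and granulocyte granule proteins (-6.03) and bone matrix genes (-5.50) the lowest.

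Transport into the cilium rose in the same way. The odor-sensing endings of these neurons are cilia, built by intraflagellar transport (Ift) proteins and loaded by the BBSome (Bbs proteins). Of 22 genes of these machines, 19 rose and none fell, with a median of 1.00, and 11 did not overlap. Bbs4, a BBSome subunit, had 100.4, 137.7 and 146.5 TPM in neurons and 70.54, 88.63, 52.85, 54.94 and 42.23 in negative cells, where mouse 2 was highest and still below the lowest neuron library (1.10, SE 0.18, adjusted p = 0.000158). Ift57, of the anterograde transport complex, had 73.51, 122.5 and 135.2 TPM in neurons and 58.05, 67.57, 52.64, 43.17 and 45.18 in negative cells, again with no overlap (1.04, adjusted p = 0.000257). The largest rises were those of Bbs9 (1.45) and the kinesin Kif17 (1.45), which carries cargo along cilia. Ift20 (0.05), Ift80 (0.37) and Bbs1 (0.49) did not pass the test. With the mouse as a block 21 of the 22 rose, Bbs1 (adjusted p = 0.0407) and Ift80 (adjusted p = 0.00456) among them.

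Promoters of these genes are shown because the genes rose together. RFX factors, regulators of ciliary genes, bind the X-box, searched here as the half-sites GTNNCC and GGNAAC with 2 bases between them, on both strands, in the 250 bases before to 50 bases after each start in the RefSeq promoter table (GRCm38.p6). The letters were present in 4 of the 20 cilium transport genes found in that table (20%; Ift57, Bbs1, Bbs4 and Bbs7) and in 403 of 27025 promoters in all (1.49%). The search was chosen after the values were seen. A match is a description of these letters and not a shown binding site. The promoters of Bbs4 (chr9:59353459-59353758, minus strand) and Ift57 (chr16:49699044-49699343, plus strand) follow from 5′ to 3′ on the gene's strand, with the match in capitals. The letters of Bbs4 fit as printed, and those of Ift57 fit on the opposite strand, read as the reverse complement.
Bbs4: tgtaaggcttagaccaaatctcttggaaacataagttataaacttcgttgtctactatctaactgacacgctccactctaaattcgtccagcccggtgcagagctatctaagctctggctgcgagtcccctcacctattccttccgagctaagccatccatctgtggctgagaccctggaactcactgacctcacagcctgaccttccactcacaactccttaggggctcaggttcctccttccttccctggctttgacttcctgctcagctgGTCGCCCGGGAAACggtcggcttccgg
Ift57: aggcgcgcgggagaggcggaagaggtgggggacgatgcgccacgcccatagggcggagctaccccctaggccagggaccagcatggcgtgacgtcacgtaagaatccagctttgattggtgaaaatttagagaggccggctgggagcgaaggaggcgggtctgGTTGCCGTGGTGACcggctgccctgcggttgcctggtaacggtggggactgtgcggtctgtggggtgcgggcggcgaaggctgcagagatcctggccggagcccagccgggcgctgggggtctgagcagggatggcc

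Genes of motile cilia, whose axonemal parts beat cilia elsewhere, rose as well. Of 12 tested genes of a list of 14, 11 rose and none fell, with a median of 1.45, and 4 did not overlap. Drc1, of the dynein regulatory complex, had 203.2, 278.1 and 320.4 TPM in neurons and 96.6, 153.9, 46.86, 75.99 and 18.27 in negative cells (2.05, SE 0.41, adjusted p = 0.000799). Negative cells of mouse 2 were closest to the neurons and those of mouse 5 farthest. Foxj1, the master regulator of motile ciliogenesis, rose (1.46, adjusted p = 0.00106) with overlapping libraries, as did the axonemal dynein Dnah11 (1.45), while the dynein Dnah5 (1.72) and the tektin Tekt1 (1.66) rose without overlap. Dnah9 did not pass the test (0.80), except with the mouse as a block (adjusted p = 0.00435), where all 12 rose. None of the 12 motile cilia genes found in the promoter table held the X-box letters in its window. Tekt2, a tektin of axonemal microtubules and no member of the list, had the second largest rise among the genes named by rule. Its values were 86.66, 108.3 and 121.1 TPM in neurons and 9.793, 12.76, 18.41, 11.28 and 13.51 in negative cells, so that every neuron library was more than 4-fold above every negative library (2.95, SE 0.15, adjusted p = 8.79e-09).

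Markers of axon growth in immature neurons rose in 16 of 20 genes and fell in none, with a median of 0.96 and 11 genes without overlap. Gng8, the G protein subunit whose promoter gives the gg8 driver its name, had 310.5, 340.6 and 403.2 TPM in neurons and 64.24, 96.53, 141.9, 86.6 and 144.5 in negative cells (1.76, adjusted p = 5.39e-06). Crmp1, a mediator of semaphorin signalling, had 270.6, 290.7 and 327 TPM in neurons and 54.86, 87.13, 91.32, 57.51 and 91.57 in negative cells (1.96, adjusted p = 2.66e-07). Both were about as high in neuron replicates 5 and 6 as in the other neuron libraries, and neither overlapped. Nrn1, a growth-promoting surface protein (1.78), Dpysl5 (1.57), the neuronal tubulin Tubb3 (1.45) and Gap43, a growth cone protein (1.04), also rose. Stmn1 (0.26), Dcx (0.57), Marcks (0.22) and Marcksl1 (-0.22) did not pass the test. In the fit with the mouse as a block 17 rose, Dcx among them (adjusted p = 0.032). Without neuron replicates 5 and 6, 1 of the 20 genes fell.

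Transcription regulators of the lineage rose in 13 of 18 genes, with a median of 0.89 and 10 genes without overlap. The homeobox factors Emx2 (1.53) and Lhx2 (1.16), which act on odorant receptor genes, the repressor Scrt1 (1.30), the neuronal factor Myt1l (1.20) and Ebf3 (1.18) were among them. Of the 18 genes 2, Scrt1 among them (0.8473 TPM in negative cells), reached the minimum of 1 TPM through the neurons alone, so their direction was fixed by that filter. The fit with the mouse as a block gave 14 rises. One of the 18 fell, Nfix (-0.55), without overlap, and its relatives Nfia (-0.18) and Nfib (-0.23) did not pass the test. In the axon guidance and adhesion list, 10 of 18 genes rose (14 with the mouse as a block) and none fell, with a median of 0.66. Without neuron replicate 5, without neuron replicates 5 and 6, or with median-of-ratios scaling, 1 of the 18 fell. The adhesion protein Kirrel3 (1.80), which sorts axons into glomeruli, the ephrin Efna5 (1.38), the protocadherin Pcdh10 (1.28), the Slit receptor Robo2 (1.23) and the semaphorin coreceptor Plxna1 (1.09) rose. Nrp1, the receptor of Sema3a, stood at 58.12 and 61.67 TPM and did not pass the test (-0.13).

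The other genes with the largest rises, by the naming rule, were mostly surface, channel and signalling genes, and the rule required that their libraries not overlap. Lrrn3, a leucine-rich repeat neuronal protein, had 130.5, 280.1 and 325.6 TPM in neurons and 33.66, 44.19, 33.62, 34.16 and 23.71 in negative cells (2.75, adjusted p = 1.1e-06). Cntn2, a contactin of growing axons, had 25.08, 46.46 and 52.69 TPM in neurons and 4.242, 4.543, 7.414, 6.769 and 6.176 in negative cells (2.71, adjusted p = 2.5e-07), and its lowest neuron value was in replicate 5. The orphan receptor Gpr85 rose from 3.912 to 32.04 TPM on average (2.68). Cacnb1, a calcium channel subunit, stood at 9.321 against 63.29 TPM (2.64), Fam212b at 6.586 against 46.77 (2.62) and the lectin-like Clec2l at 1.581 against 14.46 (2.59). Ddx25, an RNA helicase known from germ cells, stood at 3.648 against 27.08 TPM (2.54) and Pcp4, a calmodulin-binding peptide, at 6.833 against 40.71 (2.46).

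**Figure D2:**
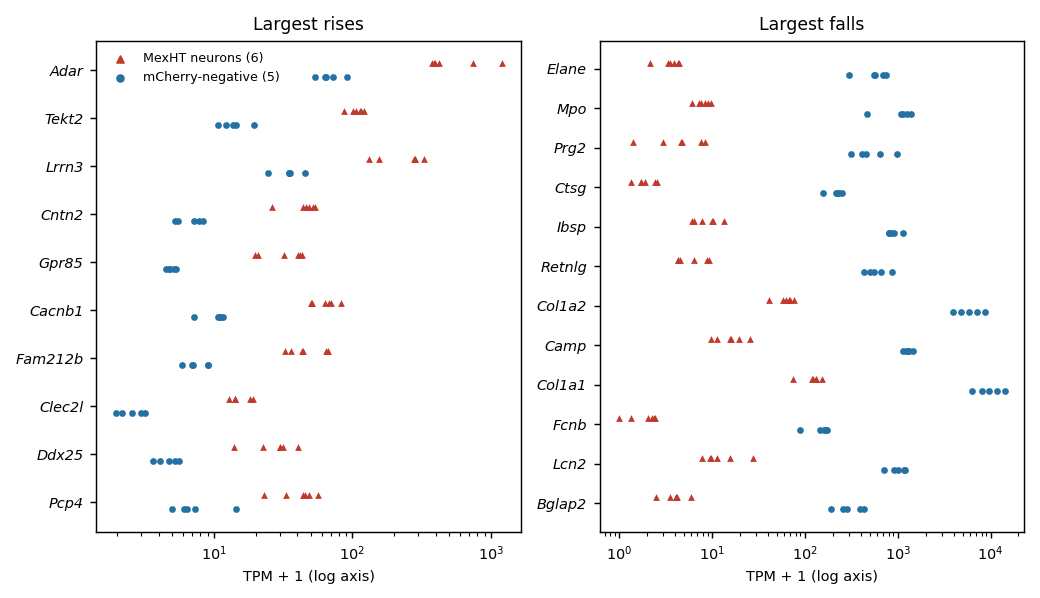
TPM + 1 (log axis) in each of 6 MexHT neuron libraries (triangles) and 5 mCherry-negative libraries (circles) for 10 of the 12 largest rises (left) and the 12 largest falls (right) named by rule. The groups are apart in each gene, as the rule asks, and the gaps are wider on the right, where Elane is at 1.178 to 3.479 TPM in neurons and at 301.9 to 742.9 in negative cells.

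Genes of odor transduction in mature neurons gave few calls, with wide differences between mice. The cascade runs from the receptor over the G protein Gnal to the cyclase Adcy3, the channel subunits Cnga2, Cnga4 and Cngb1, and the chloride channel Ano2. Of 15 tested genes 2 rose (Cnga2 1.13 and the G protein subunit Gnb1 0.54) and 1 fell (the chloride importer Slc12a2, -0.79), with a median of 0.54 and no gene without overlap. Omp, the olfactory marker protein of mature neurons, had 682, 1396 and 1597 TPM in neurons and 1076, 1431, 279.3, 892 and 46.88 in negative cells. The negative cells of mice 1, 2 and 4 lay within the range of the neurons, and those of mice 3 and 5 lay far below (1.49, SE 0.72, adjusted p = 0.0859). Within each of the 5 mice Omp was higher in neurons, and with the mouse as a block its adjusted p was 0.0266. Cnga2 itself had 273.7, 441.7 and 532 TPM in neurons and 346.9, 467.5, 112.3, 239.3 and 55.68 in negative cells (adjusted p = 0.0431), with overlap. Adcy3 had 56.96, 151.1 and 242.9 TPM in neurons and 356.2, 542.7, 71.34, 267 and 49.66 in negative cells, where mice 1, 2 and 4 were above every neuron library (-0.39, adjusted p = 0.579). In the fit with the mouse as a block 7 genes of the list rose in place of 2. With median-of-ratios scaling, or without negative replicate 3 or 5 or neuron replicate 3, none rose. Without neuron replicates 5 and 6, 1 rose and none fell.

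The summed level of the odor transduction list shows the same split between mice. Neuron replicates 1 to 6 stood at 8731, 8183, 8427, 6690, 3297 and 5696 TPM and negative replicates 1 to 5 at 7356, 9557, 2694, 5485 and 1424. Mouse 2 had more in its negative cells than in its neurons, and the other 4 mice had less. The mCherry-negative fraction of mice 1, 2 and 4 thus held transcripts of mature neurons above the lowest level in the sorted neurons.

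Among the helpers that bring odorant receptors to the surface, 3 of 6 rose (the membrane-shaping protein Reep1 1.92, the cilium transport protein Ift122 1.31 and the receptor chaperone Rtp2 1.01), with a median of 0.91. Its relative Rtp1 (0.80, adjusted p = 0.0637) passed with the mouse as a block (adjusted p = 0.00401), and 5 of the 6 rose without negative replicate 2. The promoter of Cnga2 is shown for the core of the motif of EBF factors, regulators of olfactory neuron genes, searched as CCCNNGGG, which reads the same on both strands. These letters were in 7 of the 12 odor transduction genes found in the promoter table (58.3%) and in 4159 of 27025 promoters (15.4%), in a search chosen after the values were seen. They were also in all 3 trafficking helpers found there (Rtp2, Reep1 and Gfy). In the other lists searched they were in 33.3% of motile cilia, 28.6% of presynaptic, 25% of growth and 18.8% of granulocyte genes. The shares were 7.69% of bone genes and 5% of cilium transport genes. The Cnga2 window is chrX:71991599-71991898 on the plus strand of GRCm38.p6, from RefSeq, with the match in capitals.
Cnga2: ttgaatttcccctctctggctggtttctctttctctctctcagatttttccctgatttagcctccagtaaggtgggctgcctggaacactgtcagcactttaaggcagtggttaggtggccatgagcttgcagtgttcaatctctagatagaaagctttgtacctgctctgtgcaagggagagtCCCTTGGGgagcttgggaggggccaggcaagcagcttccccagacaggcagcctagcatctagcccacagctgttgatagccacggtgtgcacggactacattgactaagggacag

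Few odorant receptor genes rose, and the direction of the group depended on the scaling. Of 1098 receptor genes in the table, 357 reached the minimum of 1 TPM on average, and of these 9 rose (2.52%, where 35.8% of all genes rose) and 108 fell (30.3%, near the 27.6% of all genes that fell), with a median of -0.52. Of the 108 falls 73 were of receptors that reached the minimum through the negative cells alone, and 6 of the 9 rises of receptors that reached it through the neurons alone, so the direction of these was fixed by that filter. With quantile normalization 47 rose and 8 fell, with a median of 0.08. The number that fell was 46 without negative replicate 2, 67 without negative replicate 4, 69 without negative replicate 1, and 67 without neuron replicates 5 and 6 together, and with the mouse as a block 14 rose and 92 fell. Between 120 and 401 receptors reached 1 TPM in a neuron library (median 263.5) and between 220 and 590 in a negative library (median 489). Summed over all receptors, neurons stood at 1136, 1184, 1245, 812.2, 544.1 and 488.9 TPM (replicates 1 to 6) and negative cells at 1645, 2139, 1073, 1568 and 706.9 (replicates 1 to 5), so that the lowest sums in neurons were those of replicates 5 and 6. Olfr665, one of these 73, had the largest fall (0.688 against 5.65 TPM, log2 difference -1.70, adjusted p = 0.00532). Olfr464 had the largest rise (32.1 ± 28.3 against 6.39 ± 4.06 TPM, log2 difference 1.95, adjusted p = 0.00817). Receptor genes are near-identical in parts, so reads may be divided between them.

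Other receptor systems of the epithelium gave few calls in the neuronal direction. None of the 11 trace amine receptor genes tested, of 14, passed the test, with a median of -0.49 (0.00 with quantile normalization). In the list of guanylyl cyclase D neurons, an olfactory subtype that signals through cGMP, 2 of 8 genes rose, the channel subunit Cnga3 (0.72) and Ms4a7 (1.35). Its defining cyclase Gucy2d fell (-1.07), as did the carbonic anhydrase Car2 (-2.49) and the receptors Ms4a6c (-2.60), Ms4a4c (-2.30) and Ms4a6b (-1.40), which immune cells express as well. Ms4a4c reached the minimum through the negative cells alone, so its direction was fixed by that filter. For Ms4a7 the negative cells of mouse 1 alone (7.858 TPM) lay within the range of the neurons (3.875 to 11.16 TPM). The macrophage gene C1qc, given below, showed the same pattern. In this list 1 gene rose without negative replicate 2, 3 or 5, or without neuron replicate 1, 2 or 4. At a minimum of 5 TPM, 1 rose and 2 fell.

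The largest falls were those of genes of white blood cells and bone. All 17 tested granulocyte genes of a list of 19 fell, with a median of -6.03, and all 17 were without overlap (27.6% of all genes fell). Elane, neutrophil elastase, had 1.178, 2.729 and 3.479 TPM in neurons and 301.9, 742.9, 557.3, 563.4 and 696.8 in the negative cells of mice 1 to 5 (-7.27, SE 0.24, adjusted p = 7.9e-10), the largest fall of all genes. Mpo, myeloperoxidase, had 5.107, 7.13 and 8.904 TPM in neurons and 471.5, 1264, 1085, 1136 and 1408 in negative cells (-6.98, adjusted p = 9.09e-10). In both genes mouse 1 had the lowest negative value, still far above every neuron library. Ctsg, another granule protease (-6.81), Retnlg (-6.63), the antimicrobial peptide Camp (-6.39), the ficolin Fcnb (-6.31) and the iron-binding Lcn2 (-6.30) were also among the 12 largest falls. Summed over the list, negative cells held 13900, 16020, 15020, 17600 and 18900 TPM, 1.629% of all TPM on average, and neurons 177.9 to 425.7 TPM, 0.02575% on average. Ms4a3 and Cebpe, of granulocyte precursors, had at most 3 counts in any neuron library and 57.15 and 18.79 TPM in negative cells. Of the 17 genes, 4 reached the minimum of 1 TPM through the negative cells alone: Ctsg, Fcnb, Ms4a3 and Cebpe. The fall of these 4 was fixed by that filter.

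Genes of eosinophils, basophils and mast cells fell in 13 of 13 tested genes of 15, with a median of -3.77, and 11 of the 13 reached the minimum through the negative cells alone. Prg2, the major basic protein of eosinophil granules, had 0.431, 3.713 and 7.524 TPM in neurons and 317.7, 415.4, 454.2, 643.7 and 989.9 in negative cells (-6.93, adjusted p = 4.88e-08), with the highest negative value in mouse 5. Eosinophil peroxidase, Epx, fell by 5.90 on the log2 scale. The basophil protease Mcpt8 had at most 2 counts in any neuron library and 52.78 TPM in negative cells. Epx and Mcpt8 were among the 11 genes, whose direction was fixed by that filter.

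Genes of bone and connective tissue fell too. All 15 tested genes of osteoblasts and bone matrix, of 16, fell without overlap, with a median of -5.50. Col1a1, a chain of type I collagen, had 74.19, 126.6 and 152.3 TPM in neurons and 6271, 9684, 8166, 11810 and 14350 in negative cells (-6.33, SE 0.22, adjusted p = 9.09e-10). Ibsp, bone sialoprotein, had 5.173, 7.848 and 12.6 TPM in neurons and 809.4, 853.9, 803, 921.1 and 1144 in negative cells (-6.69, adjusted p = 5.23e-10). Both were highest in the negative cells of mouse 5, and every neuron library was far below every negative library. The osteocalcin gene Bglap2 (-6.24), the second collagen chain Col1a2 (-6.57) and Sp7, the osteoblast transcription factor (-4.28), fell as well. The list took 1.941% of all TPM in negative cells and 147.1 to 281 TPM in neurons. All 14 fibroblast genes fell, with a median of -4.31, among them Col3a1 (-5.33), Lum (-5.89) and Pdgfra (-4.38). Of 14 genes of vessels and pericytes 13 fell, with a median of -2.13, among them the smooth muscle actin Acta2 (-5.19) and the endothelial cadherin Cdh5 (-2.66), while Cldn5 did not pass the test (-0.44). Of these lists, 4 bone, 3 fibroblast and 6 vessel genes reached the minimum through the negative cells alone, so their direction was fixed by that filter. Sp7, Pdgfra and Cdh5 were among these.

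Markers of epithelial cells other than neurons were mostly lower in neurons too. All 12 genes of horizontal basal cells, the reserve stem cells, fell, with a median of -3.25. Krt5, their defining keratin, had 3.224, 4.5 and 8.952 TPM in neurons and 432.4, 79.24, 75.95, 146.4 and 63.31 in negative cells (-4.34, adjusted p = 2.89e-06), with mouse 1 highest. Trp63, their master regulator, fell too (-3.39). Of 13 genes of Bowman glands and secretions 11 fell, with a median of -3.55, among them the secreted proteins Bpifb4 (-5.71), Bpifb3 (-5.58) and Scgb1c1 (-4.38). Of 12 genes of microvillous cells 11 fell, with a median of -3.72: the ionocyte factors Ascl3 (-5.18) and Foxi1 (-4.64), the chloride channel Cftr (-4.56) and the taste-like channel Trpm5 (-2.85) were among them, and the tuft cell factor Pou2f3 was not (-0.42). Of these lists, 2 horizontal basal genes (Trp63 among them), 1 Bowman gland gene and 2 microvillous genes (Cftr among them) reached the minimum through the negative cells alone, so their direction was fixed by that filter.

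The sustentacular list was divided. Of 19 tested genes 11 fell and none rose, with a median of -1.79, among them the keratins Krt18 (-2.77) and Krt8 (-2.71) and the carboxylesterase Ces1d (-3.73). The cytochromes Cyp2g1, which defines these cells (52.14 ± 32.17 TPM in neurons and 51.35 ± 59.36 in negative cells, log2 difference 0.45, adjusted p = 0.529), and Cyp2a5 (0.01) did not pass the test, nor did Sec14l3 (0.84) and Muc2 (0.94). The summed list stood at 5073 TPM in negative replicate 1 and at 1241 to 2127 TPM in the other 4. Without both libraries of mouse 1, 3 genes of this list rose, and without negative replicate 1 alone, 2 rose. One of the 19 genes reached the minimum through the negative cells alone.

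Genes of cell division were mostly lower in neurons, and those of neurogenic progenitors were divided. Of 23 cell cycle and replication genes 22 fell and none rose, with a median of -2.42 and 11 without overlap. Mki67, a marker of dividing cells, had 20.55, 47.46 and 155.1 TPM in neurons and 148.5, 360, 649.4, 785.4 and 631 in negative cells (-3.14, adjusted p = 0.000129). The lowest negative value, in mouse 1, lay just below the highest neuron value. Top2a, a topoisomerase of dividing cells (-3.23), the kinase Cdk1 (-2.97) and the replication helicase subunit Mcm3 (-2.94) fell, and E2f1 did not pass the test (-0.62), except with the mouse as a block (adjusted p = 0.02), where all 23 fell. In the list of neurogenic progenitors 8 of 16 genes fell. Sox2 (-2.34), Kit (-2.18), Tead2 (-2.51), Mybl1 (-1.58), Lgr5 (-1.29), Hes6 (-1.20) and Hopx (-0.84) were among them. Which cells of the negative fraction held the cell cycle and progenitor transcripts was not tested. The factors of the last divisions and of new neurons did not pass the test, with -0.96 for Neurog1, -0.18 for Neurod1, 0.04 for Insm1 and 0.68 for Nhlh1. Neurod2 rose (0.97, from 0.2743 to 1.687 TPM), a call lost without neuron replicate 5 or 6, and it reached the minimum through the neurons alone, so its direction was fixed by that filter. With the mouse as a block 2 genes of the list rose and 10 fell, Nhlh1 (adjusted p = 0.0401) and Neurog1 (adjusted p = 0.0101) passing in that fit.

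**Figure D3:**
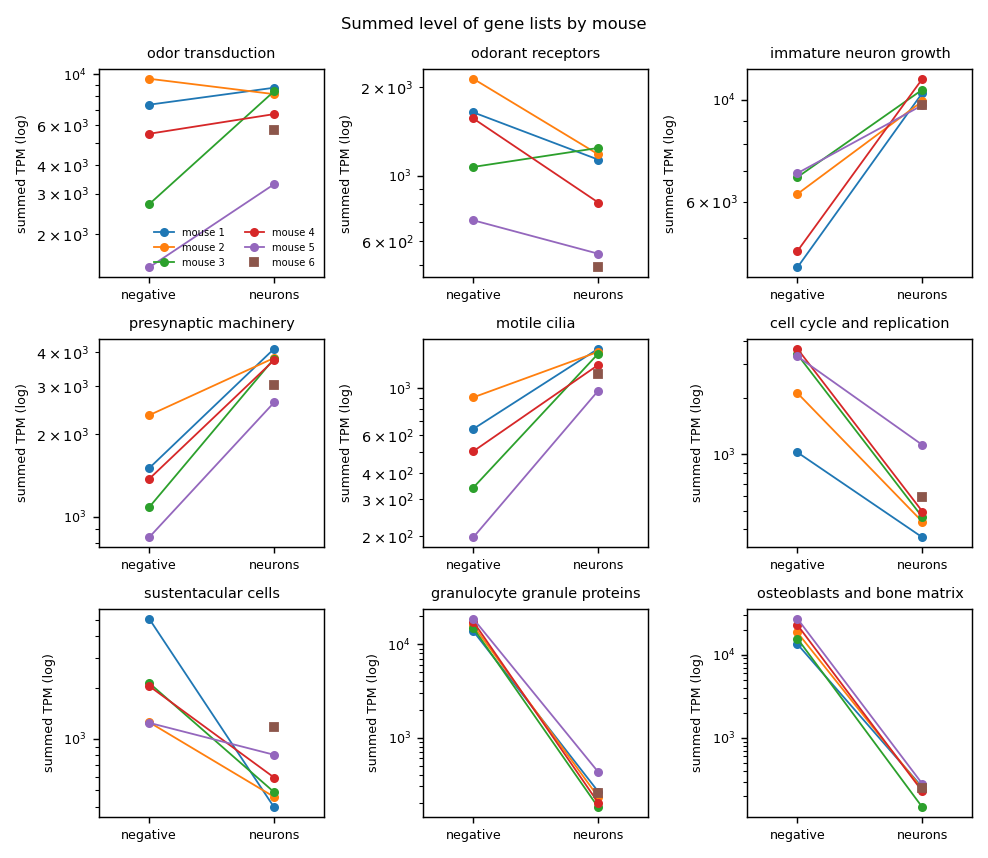
Summed TPM (log axis) of 9 gene lists in mCherry-negative cells and MexHT neurons, with a line for each of the 5 mice that gave both fractions and a square for neuron replicate 6. Presynaptic genes run upward and granulocyte and bone genes downward in each of the 5 mice, while odor transduction genes run downward in mouse 2 and upward in the other 4.

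Macrophage genes moved in both directions. Of 16 genes 3 rose, the complement genes C1qb (1.08) and C1qc (1.26) and the lipid receptor Trem2 (1.09), and 9 fell, with a median of -0.62. C1qc had 39.75, 49.46 and 87.88 TPM in neurons and 73.49, 18.35, 20.33, 13.55 and 14.69 in negative cells (adjusted p = 0.0124), where mouse 1 alone lay within the range of the neurons. Lyz2, lysozyme of macrophages and granulocytes, had 113.2, 137.6 and 204.9 TPM in neurons and 1719, 1425, 1423, 1697 and 1907 in negative cells without overlap (-3.45, adjusted p = 5.77e-09). Tyrobp (-3.34), Fcer1g (-3.17) and Cd14 (-2.88), which other myeloid cells share, fell as Lyz2 did. Of the 16 genes 5 rose without negative replicate 1 or neuron replicate 1, and 1 rose without neuron replicates 5 and 6. With the mouse as a block 2 rose, and C1qb missed the threshold (adjusted p = 0.0693). The defining markers of macrophages were not at 0 in the sorted neurons, and the summed list stood at 498.2 to 950.7 TPM there.

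Other blood cells were lower in neurons. Of 17 lymphocyte genes 14 fell, with a median of -1.28, or -1.29 with genes at the count floor set to their bound, and 4 of the 17 reached the minimum through the negative cells alone, so their direction was fixed by that filter. Among the falls were the pre-B cell gene Vpreb1 (-2.43) and the B cell factor Pax5 (-1.59). The T cell genes Cd3d (-2.92), Cd3g (-1.76) and Cd3e (-1.28) fell too, with Cd3d and Cd3e among the 4 fixed by the filter. The T cell coreceptor Cd4 (0.92) rose, and so did Ebf1 (0.91), which is also in the list of neuronal transcription regulators. All 10 tested erythroid genes of a list of 15 fell, with a median of -2.35, among them Car1 (-4.26) and the red cell factor Klf1 (-2.36). Of 7 genes of class II antigen presentation 6 fell, with a median of -2.69, among them H2-Aa (-3.20) and Cd74 (-2.69). Ensheathing glia, which wrap olfactory axons, gave 6 falls among 12 genes, with a median of -0.90, among them the receptors Ngfr (-2.10) and Erbb3 (-1.31). Their defining factor Sox10 did not pass the test (-0.52), and the rise of Fabp7 (2.01, adjusted p = 0.0434) was lost when any one of 8 of the 11 libraries was left out. Of the 12 glial genes, 1 that fell (Art3, -1.33) reached the minimum through the negative cells alone and 1 through the neurons alone. The direction of both was fixed by that filter.

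Genes induced by activity or dissociation were lower in neurons with one exception. Of 13 immediate early genes 12 fell, with a median of -1.24. Fos had 368.6, 496.5 and 576.4 TPM in neurons and 1882, 1069, 834.5, 900.8 and 956 in negative cells without overlap (-1.14, adjusted p = 0.000272), with mouse 1 highest. Ier3 (-3.31) and Atf3 (-2.57) had the largest falls. Npas4, an early gene that neurons induce on calcium influx, rose, with 22.11, 27.96 and 36.32 TPM in neurons and 4.377, 6.401, 8.492, 7.843 and 7.496 in negative cells without overlap (1.90, adjusted p = 2.4e-06). The summed list was 9554 TPM in negative replicate 1, 4958 to 5291 in the other negative libraries and 2183 to 2738 in neurons. The cells were dissociated with papain before the sort, and the part of that step was not tested. Of 13 interferon-induced genes 9 fell, with a median of -1.20, among them Irf7 (-1.86). The number that fell was 5 with quantile normalization and 10 with the mouse as a block. Of the 13 interferon-induced genes 1 (Zbp1) reached the minimum through the negative cells alone, so its direction was fixed by that filter.

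The stress response list, of genes of the unfolded protein and integrated stress responses, was divided, with 2 rises and 5 falls among 15 genes and a median of 0.02 (-0.12 with median-of-ratios scaling). Eif2ak3, the kinase PERK of the endoplasmic reticulum (1.05, adjusted p = 6.39e-06), and the asparagine synthetase Asns (0.77) rose. The stress-induced Nupr1 (-4.68), the chaperone Hspa5 (-0.76), Ppp1r15a (-0.90), Xbp1 (-0.60) and Pdia4 (-0.48) fell, and the effectors Atf4 (0.10) and Ddit3 (-0.34) did not pass the test. With the mouse as a block 4 genes rose, and without neuron replicates 5 and 6, 1 rose and 9 fell.

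Genes of the ribosome and of the respiratory chain moved apart. Of 79 tested genes of cytosolic ribosomal proteins 62 fell (67 with the mouse as a block) and 1 rose (Rps4l), with a median of -0.51, and their summed share was 3.892% of TPM in neurons and 5.648% in negative cells. Of 75 genes of oxidative phosphorylation 39 rose (35 with the mouse as a block) and none fell, with a median of 0.34 and a summed share of 2.107% against 1.719%. With median-of-ratios scaling 20 of the 75 rose and 1 fell. Ribosomal protein genes have near-identical copies in the genome, so their reads may be divided between copies.

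The direction of most calls was shared by the 5 mice. Of the genes that rose, 5510 (93.2%) were higher in neurons in 5 of 5 mice, where 37.5% of all genes tested were, and of those that fell, 4168 (91.4%) were lower in 5 of 5, where 26.8% of all were. These are the same libraries as in the test and give no separate support. In the gg8 mice, whose values come from other libraries, 3697 of 5728 rises (64.5%) were higher in both mice and 2917 of 4231 falls (68.9%) lower in both, against 40.8% and 32.5% of all genes tested. For HT mice the shares in the group means were 89.7% of rises and 86.6% of falls, against 57.5% and 42.4%.

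For mice with the gg8 driver alone the lists are given as values without a test. The median log2 difference in mice 1 and 2 was -2.88 and -5.57 for odor transduction, -1.87 and -2.79 for odorant receptors, -0.41 and -2.64 for motile cilia, and 0.15 and 0.25 for immature neuron growth. Mature neuron genes were thus lower in these sorted immature neurons than in the negative cells of the same mice. The gg8 mice differed from each other in presynaptic genes (0.64 and -1.09), cell cycle genes (-2.81 and -0.67) and progenitor genes (-1.51 and 0.97). Granulocyte genes (-5.33 and -4.46) and bone genes (-4.23 and -3.70) were low in the neurons of both.

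The test of the construct asked for which genes the difference of neurons and negative cells in MexHT mice differed from that in HT mice. Over the 17 libraries with both drivers, 1184 of 16785 genes were higher in this sense (7.05%) and 902 lower (5.37%), 12.4% in all, with 4689 at an unadjusted p under 0.05. The counts depended on single HT libraries: without HT neuron replicate 1, 726 were higher, without HT neuron replicate 2, 764, and without HT negative replicate 2, 660 higher and 535 lower. With median-of-ratios scaling 715 were higher and 1057 lower, so higher calls were 40.3% of all in place of 56.8%, and with quantile normalization they were 49.2%. HT neuron replicate 2 had 18006 genes at 1 TPM or more, and HT neuron replicates 1 and 3 had 15843 and 16066. Xist stood at 0.1256, 0.1398 and 60.3 TPM in the 3 HT neuron libraries and 0.09337, 0.1349 and 76.54 in the 3 HT negative libraries, against a mean of 115.3 and 118.4 in MexHT, so the constructs differed in sex-linked transcripts, and the part of this in the construct differences was not tested.

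Of the 10 genes reported for their rise, 9 rose more in MexHT than in HT mice. The largest of these differences were those of Fam212b (2.86, adjusted p = 0.000294), Pcp4 (2.59, adjusted p = 0.00415), Gpr85 (2.54, adjusted p = 0.000856), Clec2l (2.50) and Tekt2 (2.20), and in HT mice Fam212b (-0.24) and Pcp4 (-0.13) were not higher in neurons. Cntn2 (2.19), Lrrn3 (1.96), Cacnb1 (1.91) and Ddx25 (1.81, adjusted p = 0.00884, 0.104 with voom on the recovered counts) were the others. These 10 genes were chosen for their rise in MexHT, so a larger value there is in part fixed by the choice. None of the 12 genes named for their fall had a construct difference. In the lists, 2 of 18 presynaptic, 3 of 22 cilium transport, 3 of 20 growth and none of 15 odor transduction genes were higher, against 7.05% of all genes.

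The 5 largest construct differences in each direction held other genes. Phlda3, a p53-induced regulator of Akt, was at 51.99 TPM in MexHT neurons and 16.28 in their negative cells, and at 0.7283 and 7.689 in HT (3.97, SE 0.67, adjusted p = 0.00197). In mouse 1 Phlda3 stood at 33.38 TPM in neurons and 38.33 in negative cells. The other mice with both fractions had more in neurons. In both gg8 mice Phlda3 was higher in neurons (3.80 and 2.79). Cntfr, the receptor of ciliary neurotrophic factor, followed (3.08, adjusted p = 0.0212), with an adjusted p of 0.14 with voom and 0.0513 without HT negative replicate 1. Vcan, the matrix proteoglycan versican, was next (2.97, adjusted p = 0.0182, 0.0512 without HT neuron replicate 1), and Fam212b and Pcp4 completed the 5.

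In the other direction stood Abcc3, an export pump (-3.33, adjusted p = 0.002), Adgre1, the macrophage marker F4/80 (-3.30, adjusted p = 0.00179), and the myeloid genes Cyth4 (-3.22), Clec4n (-3.20) and Slc11a1 (-3.19). Adgre1 was at 8.919 TPM in MexHT neurons and 13.42 in their negative cells, and at 35.16, 41.17 and 154.2 TPM in the 3 HT neuron libraries and 5.845, 7.945 and 11.75 in the 3 HT negative ones. All 16 macrophage genes were lower in the construct difference (5.37% of all genes), with a median of -2.92, and between 11 and 16 were in the 25 other settings. Their median neuron-minus-negative difference was -0.62 in MexHT and 2.40 in HT mice. C1qa, a complement gene of macrophages, was at 190.9, 255 and 850.2 TPM in the HT neuron libraries and at 51.48 ± 17.03 TPM in the MexHT neurons. Macrophage transcripts in the sorted fraction moved with the construct, and their part in the other construct differences was not tested.

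**Figure D4:**
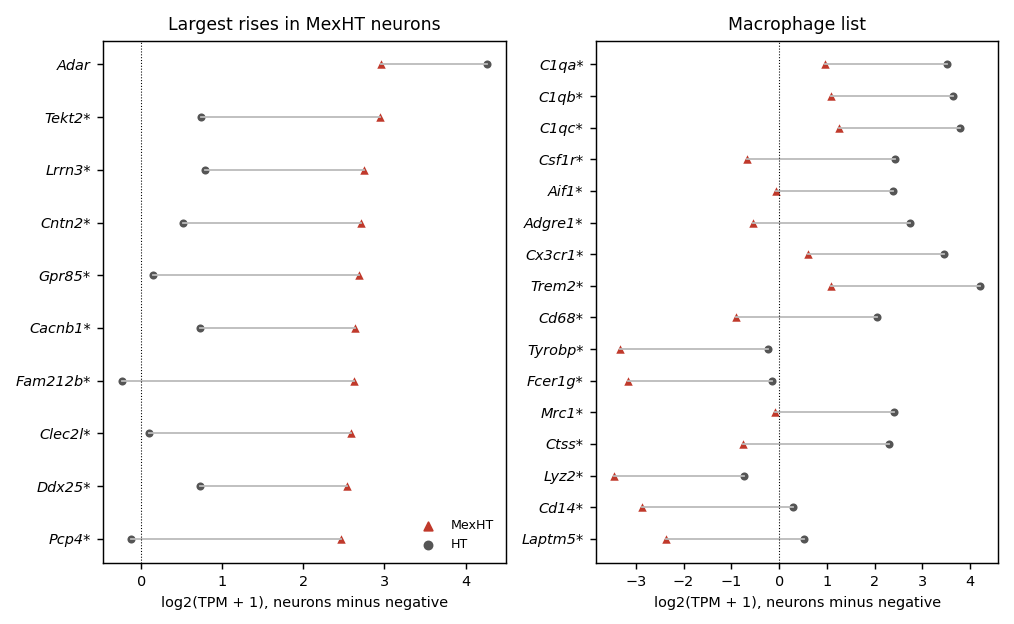
Log2(TPM + 1) difference, neurons minus mCherry-negative cells, in MexHT mice (triangles) and HT mice (circles) for 10 of the 12 genes with the largest rises (left) and the 16 macrophage genes (right), with an asterisk where the constructs differed at an adjusted p under 0.05. Of the rises, 9 carry the asterisk with MexHT to the right of HT, and all 16 macrophage genes carry it with MexHT to the left.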

How the data were processed

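RNA of cells dissociated with papain and sorted by mCherry was extracted with TRIzol and made into libraries with a low-input, stranded kit (SMARTer v2 Pico), per the labels. The submitters' processing notes name FastQC, cutadapt, STAR, bedtools and the mouse build mm10, and the counting program, the annotation and the use of strand are not given in the sources used here. The authors deposited TPM values per gene in separate tables for the 17 libraries with both drivers and for the 4 gg8 libraries, so tests were made only within the first. The 27 symbols turned into dates (at most 0.221% of TPM) were left out, leaving 23587 genes.

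Differences were fitted with limma 3.58.1 in R 4.3.3 (lmFit, eBayes with trend), on log2(TPM + 1). Genes averaging under 1 TPM in the fitted libraries were not tested. The fit used Benjamini-Hochberg adjustment, a threshold of 0.05 and two-sided tests. Such differences understate the change of low genes. The test was checked on simulated counts at the depths of these libraries, with 200 changed genes at a time and the same spread for every gene. It recovered 8% of those changed 2-fold (over 16447 genes) and 93% of those changed 4-fold (over 16414 genes). In the measured comparison 63.4% of genes were called, which loosens the unadjusted p needed for a call. The recovered shares therefore do not give the sensitivity of that comparison. A gene changed by 2-fold or less can still miss the threshold. TPM values were whole multiples of a step per gene and library, which gave whole counts for 23614 of 23614 genes (100%, tolerance 0.001, against 14.17% with wrong steps). These counts gave the depth and were fitted with limma's voom as an alternative, and a count of 3 was taken as the floor. Without molecular identifiers, floors cover counting error only. Over 25 pairs of libraries within a group, chi-square was 3.53 to 71.8 times its degrees of freedom, so each pair differed by more than counting error. Pairs among neuron replicates 1 to 4 gave 3.53 to 11, and pairs with neuron replicate 5 or 6 gave 19.9 to 71.8. Whether separate libraries shared RNA or cells was not tested.

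Same-numbered libraries come from one mouse, per the labels. Their deviations from the group means correlated by 0.185, 0.279, -0.109, 0.095 and 0.421 in mice 1 to 5. Between libraries of different numbers the correlation was -0.31 to 0.33. The own partner was the best match in 3 of the 5 mice, and neuron replicates 1 (0.33) and 3 (0.169) correlated most with negative replicate 2. The pairing thus rests on the labels. The fit without a block is reported, and the fit with the mouse as a fixed term, to which neuron replicate 6 adds nothing, is given beside the genes and lists described where it changes a call or a count.

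Genes named were Mex3a, the 12 largest changes in each direction (past the threshold, at least 10 TPM on average in the higher group, no overlap between groups, and no predicted genes, clones, antisense or small RNAs), the 5 largest construct differences in each direction by the same rule without the overlap condition, and members of the lists. Of the 12 rises 2 are not reported here. Members and lists were chosen with earlier results of these data known. List genes not found in the table were Ms4a4a, Sh2d6, Azu1, Ly6g, Hba-a1, Hbb-bt and Epb42.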

Additional observations from a re-analysis of the deposited data

Results flagged for a closer look

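Among 116 groups examined (each named gene and each list sum, in neurons and in negative cells), 8 had a highest or lowest library far from its group, and chance gives about 1 in 20. Neuron replicate 5 was low in Cntn2 (25.08 TPM, the others 43.18 to 52.69). Neuron replicate 3 was low in Col1a1 (74.19 TPM, the others 120.1 to 152.3) and in the summed bone list (147.1 TPM, the others 228 to 281), and neuron replicate 6 in the summed neuronal transcription regulators (4824 TPM, the others 5404 to 5695). Among the negative cells, replicate 5 was low in Cacnb1 (6.209 TPM, the others 9.692 to 10.56). Negative replicate 1 was low in Mpo (471.5 TPM, the others 1085 to 1408) and Fcnb (86.98 TPM, the others 144.2 to 172.6) and high in the summed immediate early genes (9554 TPM, the others 4958 to 5291). The calls of Cntn2, Cacnb1, Mpo, Col1a1 and Fcnb did not change when any one library was left out.

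The neuron-minus-negative difference differed between the constructs, by the test of that difference over 17 libraries, in 10 of the 23 genes named for the comparison. On the log2 scale these differences were 2.55 for Mex3a, 2.20 for Tekt2, 1.96 for Lrrn3, 2.19 for Cntn2, 2.54 for Gpr85, 1.91 for Cacnb1, 2.86 for Fam212b, 2.50 for Clec2l, 1.81 for Ddx25 and 2.59 for Pcp4, each higher in MexHT. The other genes named for that difference were Phlda3 (3.97), Cntfr (3.08) and Vcan (2.97), higher in MexHT, and Abcc3 (-3.33), Adgre1 (-3.30), Cyth4 (-3.22), Clec4n (-3.20) and Slc11a1 (-3.19), lower in MexHT. The HT groups had 3 libraries each, and in HT neurons the SD of Adgre1 was 67.03 TPM at a mean of 76.83.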

How the results depend on the processing

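The 5909 rises and 4558 falls stayed within 1.5 times in each of the 23 other settings tried, from 4875 (median-of-ratios scaling) to 6554 rises (quantile normalization) and from 3354 (a minimum of 5 TPM) to 5127 falls. Leaving out 1 library gave 5381 to 5950 rises and 4242 to 4763 falls. With the mouse as a block, which uses the pairing, 6171 rose and 4567 fell as a fixed term, and 6290 and 4761 as a random effect. Leaving out neuron replicates 5 and 6 together (6170 and 4814) or both libraries of mouse 1 (5339 and 4332) was added after the data were seen. The 23 named genes kept direction and call in all 23 settings. The construct difference was less stable, with 1184 higher and 902 lower as reported. It gave 715 higher with median-of-ratios scaling and 2016 higher and 1382 lower with the mouse as a random block. Leaving out 1 library gave 660 to 1409 higher and 535 to 1074 lower. Of its 19 genes examined in 25 settings each, Mex3a, Cntfr, Vcan and Ddx25 lost the call in 1 or 2 settings and Adar gained it in 6. Where a count moved, the cause was not tested. Replicate 6 of the neurons had no partner, 3 HT libraries a group limit the construct difference, and genes near the floor of 3 counts cannot be ranked by fold.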
